A study of Mus musculus with 28 samples.

Results

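Loss of the histone demethylase JMJD3 (gene Kdm6b) was examined in induced regulatory T cells (iTreg) grown with DFMO, using 7 of the study's 28 RNA-seq libraries: 3 from JMJD3-deficient (KO) and 4 from control (WT) mice. All 7 were chosen by their labels, without use of any measured value. The cells were splenic naive CD4 T cells of C57BL/6 mice, activated with antibodies to CD3 and CD28 bound to the plate (1 µg/ml each), given TGF-beta 1 at 2 ng/ml and 100 µM DFMO in both genotypes, and harvested at 68 h as live cells. KO mice were JMJD3fl/fl with CD4cre, which deletes the floxed gene in developing T cells, so the deletion preceded the culture. Ages are not given in the labels, each library came from a different animal, and the controls are labelled WT without a statement on whether they carried Cre or floxed alleles. Libraries of the same animals from 2 other cultures are used for comparison: iTreg cells without DFMO (ctrl), and non-pathogenic Th17 cells with DFMO (Th17n), which received IL-6 at 25 ng/ml beside TGF-beta 1.

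JMJD3 removes methyl groups from lysine 27 of histone H3, a mark that Polycomb complexes place on silenced genes. In T helper cells it is known as a partner of T-bet (Tbx21), the transcription factor that opens the Th1 program and its cytokine interferon-gamma. DFMO blocks ornithine decarboxylase (Odc1), the entry step of polyamine synthesis. TGF-beta induces Foxp3, the defining transcription factor of regulatory T cells, and holds back T-bet.

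The libraries held 3233025 to 4528484 estimated counts, detected 12828 to 13568 genes and carried 0.871% to 1.64% mitochondrial counts, with overlapping ranges of the genotypes in each. Markers of CD4 T cells summed to 2427 to 3150 CPM (counts scaled to a common library total) in WT and 2769 to 3123 in KO. All 7 neutrophil and mast cell markers, Lyz2, the 3 C1q genes and the NK genes Klrb1c, Ncr1 and Klra8 had 0 counts in all 7 libraries. The macrophage marker Cd68 was at 2.15 to 3.39 CPM in KO and 1.04 to 3.56 in WT. Klre1, another NK gene, was at 0.297 to 0.903 CPM in KO and 0 in WT. CD8 T cell markers summed to 18.05 to 24.58 CPM in KO and 12.78 to 20.51 in WT. Dendritic cell markers summed to 4.92 to 8.61 and 5.21 to 13.55, and those of stroma and epithelium to 16.63 to 19.05 and 7.93 to 17.73. The 5 matched B cell markers summed to 13.8 to 21.4 CPM in KO and 6.95 to 11.9 in WT, almost all of it Cd79b. On the first principal component (32.2% of the variance), KO libraries lay at 11.9 to 29.7 and WT libraries 1, 3 and 4 at -31.2 to -19.6, while WT library 2 lay at 7.3, on the KO side.

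Kdm6b itself (GRCm38 chr11:69398508-69413675, minus strand) was measured at 26.1, 19.9 and 27.7 CPM in the 3 KO libraries and at 41.9, 45.4, 59.2 and 49.7 CPM in the 4 WT libraries. Every KO library was below every WT library, yet the transcript was not lost. The log2 fold change of KO over WT was -1.01 ± 0.20 (SE; edgeR quasi-likelihood, adjusted p = 0.00251). These values are summed over all exons, so reads from exons that the deletion leaves are included. On the deposited TPM the difference was -0.39 with an adjusted p of 0.317 (limma). Odc1, the target of DFMO, stood at 104.2 to 114 CPM in KO and 97.0 to 120.0 in WT (log2 fold change -0.02 ± 0.15, adjusted p = 0.964).

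Of 10985 genes tested, 455 (4.14%) were called at an adjusted p under 0.05, with 210 higher (1.91%) and 245 lower (2.23%) in KO. Among them, 75 were at least 2-fold higher and 101 at least 2-fold lower. Among those with at least 10 CPM in 1 group and no overlap of the groups, the larger decreases included Th1 and interferon-gamma response genes, and the larger rises included Ecm1, H2-Ab1 and Eng. Over all genes tested, the 3 KO and 4 WT libraries did not overlap for 1290 (11.7%). They did not overlap for 404 of the 455 called genes, but the calls rest on the same values, so this is no separate check. The number of called genes was 727 without WT library 2. It was 290 without WT library 1, 284 without WT library 3, 263 without KO library 1 and 281 without KO library 2. A fit of the 7 libraries alone called 186 genes, and the deposited TPM gave 236 higher and 132 lower.

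**Figure D1:**
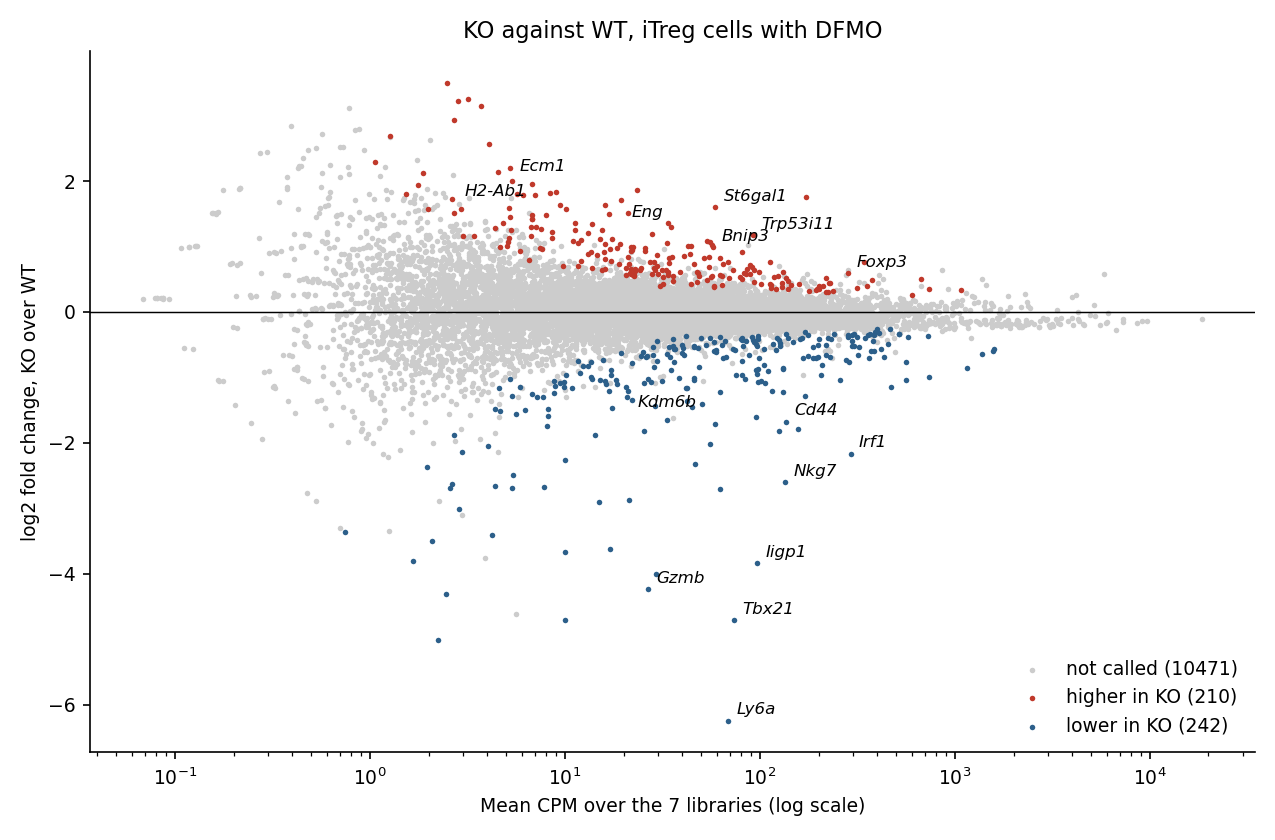
Mean level over the 7 libraries (CPM, log axis) against the log2 fold change of KO over WT, one point per gene, with called genes in red (higher in KO) and blue (lower in KO). The plot holds 10923 genes and leaves out 62 with 0 counts in all libraries of a genotype, of which 3 were called; Ly6a, Tbx21, Gzmb and Iigp1 lie lowest among the labelled genes.

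Among the pathway lists, the Th1 and cytotoxic list had the largest share of called members (57.9%, beside 4.14% of all genes). Of its 19 tested genes, 11 were lower in KO, 0 were higher and 8 were not called, and the median log2 fold change was -1.06, beside 0.00 over all genes. Leaving out any 1 library gave 9 to 12 lower members. At an unadjusted p under 0.05 (edgeR), 1 member was higher, where 7.9% of all genes were higher and 8.38% lower, and DESeq2 called 0 higher. Tbx21 (GRCm38 chr11:97098071-97115331, minus strand), the Th1 master regulator, was measured at 5.05, 5.19 and 4.0 CPM in KO and at 139, 83.1, 162 and 119 CPM in WT. The groups were far apart, and KO libraries were nearly equal to each other. The log2 fold change was -4.71 ± 0.60 (adjusted p = 9.78e-06), a 26.1-fold lower level. In bulk libraries such as these, fewer Tbx21-expressing cells and less Tbx21 RNA per cell cannot be told apart.

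Interferon-gamma itself (Ifng), the Th1 cytokine, had 0 counts in the 3 KO libraries. WT libraries 1 and 3 held 61.9 and 76.4 CPM, library 4 held 12.2 and library 2 held 0.891. With the WT mean at 37.8 CPM and a floor of 3 counts over the KO group, Ifng was at least 139-fold lower in KO (adjusted p = 0.00651). The spread among WT libraries was wide, and the adjusted p was 0.0549 in the 7 libraries alone and 0.227 in a limma-voom fit with the animal as a random effect. Gzmb, the cytotoxic protease granzyme B, followed the same order of WT libraries, at 58.8, 12.2, 93.8 and 13.9 CPM, against 3.56, 1.35 and 2.46 CPM in KO. Its log2 fold change was -4.23 ± 0.71 (adjusted p = 0.000351, or 0.132 in the limma-voom fit).

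The other members of the Th1 list that were lower covered surface receptors, granule proteins and signalling. Nkg7, a cytotoxic granule protein, was measured at 38.9, 28.4 and 36.9 CPM in KO and 279.7, 79.0, 339.6 and 140.1 in WT (log2 fold change -2.60 ± 0.44, adjusted p = 0.000351). Cxcr3, the chemokine receptor of Th1 cells, fell by 2.25 ± 0.40, Eomes, a T-box factor related to T-bet, fell by 2.69 ± 0.50, and Il18r1, a chain of the IL-18 receptor, fell by 1.21 ± 0.27 on the log2 scale, all without overlap of the groups. The chemokine Ccl4 was at 51.4 to 65.7 CPM in KO and 107 to 144 in WT (-1.06 ± 0.18, adjusted p = 0.000385). Runx3, a partner of T-bet, was called (-1.04 ± 0.25, adjusted p = 0.0128), but WT libraries 2 and 4, at 31.8 and 35.8 CPM, lay inside and just above the KO range of 24.9 to 33.0. Its call was lost without WT library 1 (adjusted p = 0.0754), WT library 3 (0.0904), KO library 2 (0.059) or KO library 3 (0.0681).

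**Figure D2:**
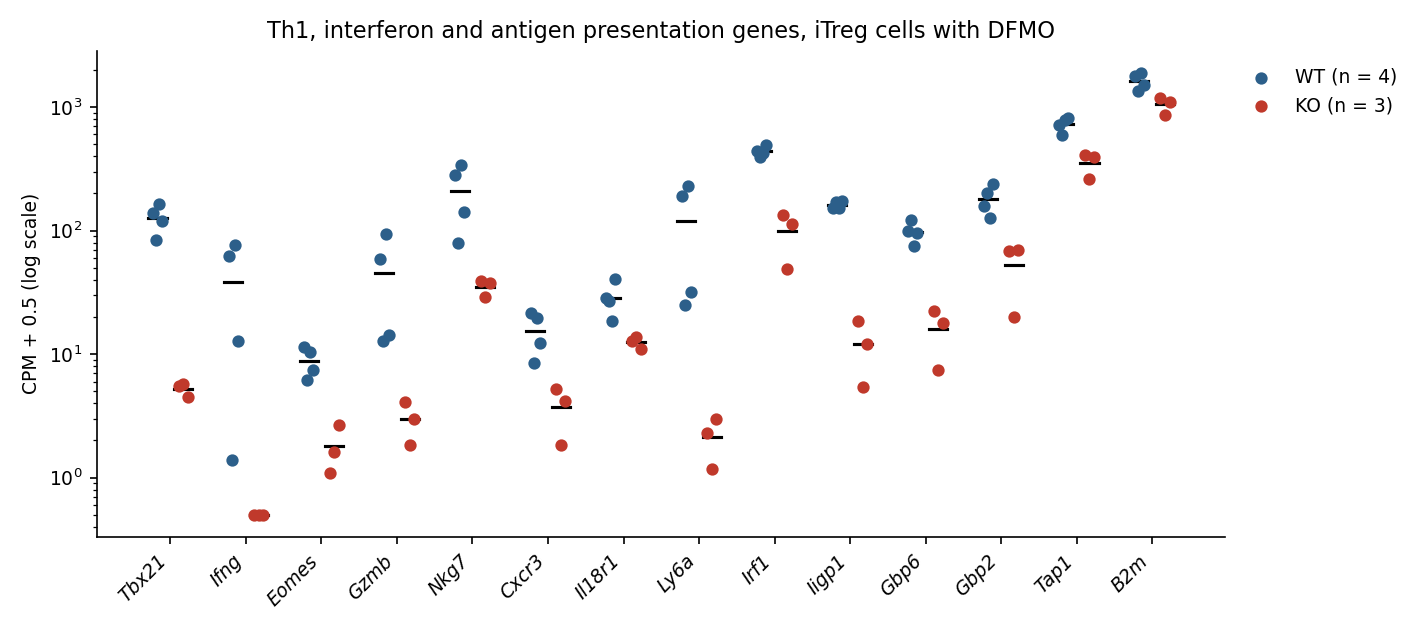
Level of 14 Th1, interferon response and antigen presentation genes in each library (CPM plus 0.5, log axis), WT in blue (n = 4) and KO in red (n = 3), with a bar at each group's mean. Every KO point lies below every WT point of the same gene; Ifng, with 0 counts in KO, is drawn at 0.5.

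The genes within 100 kb of Tbx21 were read as well. Tbkbp1, which lies 20840 bp away and encodes a TBK1-binding protein, had 2 counts in the 3 KO libraries and 58 in the 4 WT libraries (adjusted p = 0.00567). By library, Tbkbp1 was at 0.594, 0 and 0 CPM in KO and at 4.858, 2.375, 8.722 and 0.695 in WT. The call was lost in edgeR fits without KO library 2 (adjusted p = 0.056) and in the 7 libraries alone (0.0745). The remaining tested neighbours, Sp6, Scrn2, Mrpl10, Osbpl7, Kpnb1 and Npepps, were not called, with log2 fold changes between -0.26 and 0.06. These neighbours were chosen after their values were seen.

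Genes that interferon-gamma is known to induce were among those lower in KO. Irf1 (GRCm38 chr11:53770014-53778374), a transcription factor induced by interferon-gamma, was at 133, 48.5 and 113 CPM in KO and 441.5, 389.9, 423.5 and 493 in WT. The WT libraries, including library 2 in which Ifng was nearly absent, were close to each other for Irf1, and KO library 2 was the lowest of all. The log2 fold change was -2.17 ± 0.29 (adjusted p = 1.72e-05).

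Promoter sequences are shown for 3 of these genes because their annotated starts are preceded by the letters of known interferon response elements. They are the 250 bases before the start, from RefSeq (GRCm38.p6), read in the direction of the gene, with TTCNNNGAA (GAS) or GAAANNGAAA (ISRE) in capitals, searched on both strands. The motifs and genes were chosen after the values were seen.
Irf1, chr11:53769764-53770013, plus strand, GAS: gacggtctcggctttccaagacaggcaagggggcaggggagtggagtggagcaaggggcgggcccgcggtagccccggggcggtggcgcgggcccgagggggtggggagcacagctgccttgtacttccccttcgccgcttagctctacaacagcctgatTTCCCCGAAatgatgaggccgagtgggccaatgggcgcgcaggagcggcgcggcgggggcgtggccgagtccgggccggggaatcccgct
Tgtp1, chr11:48992247-48992496, minus strand, GAS and ISRE: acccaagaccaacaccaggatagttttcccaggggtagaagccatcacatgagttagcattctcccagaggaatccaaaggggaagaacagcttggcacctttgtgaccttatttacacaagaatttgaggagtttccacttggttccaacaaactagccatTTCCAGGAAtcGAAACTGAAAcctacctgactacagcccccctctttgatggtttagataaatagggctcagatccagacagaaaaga
Gbp2, chr3:142620413-142620662, plus strand, ISRE: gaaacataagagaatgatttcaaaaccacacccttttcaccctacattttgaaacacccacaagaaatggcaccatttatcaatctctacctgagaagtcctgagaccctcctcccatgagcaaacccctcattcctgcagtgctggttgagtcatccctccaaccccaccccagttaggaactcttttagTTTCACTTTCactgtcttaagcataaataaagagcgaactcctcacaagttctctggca
The GAS letters stand 90 to 82 bases before the start of Irf1 and 88 to 80 bases before that of Tgtp1, where the ISRE letters follow at 77 to 68. In Gbp2 the ISRE is read on the opposite strand, 59 to 50 bases before the start.

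Across promoters, the ISRE letters were found in 298 of 11052 windows of tested genes (2.7%), in 14 of 233 windows of genes lower in KO (6.01%) and in 7 of 230 windows of genes higher in KO (3.04%). The GAS letters were found in 684 (6.19%), 24 (10.3%) and 19 (8.26%) of these windows. Some genes have more than 1 window, and windows were at hand for 8671 of the 10985 tested genes. A match is a description of the sequence and was not tested as a binding site.

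The interferon-inducible GTPases, which attack vacuoles that hold pathogens, were listed together after their values were seen. Of 15 tested genes, 10 were lower in KO and 0 higher (0 at an unadjusted p under 0.05 in edgeR, 0 by DESeq2). The median log2 fold change was -1.30, and 66.7% were called, beside 4.14% of all genes. Of the 7 lower members with a promoter window, 6 held the ISRE letters, beside 2.7% of the windows of tested genes. These 6 are among the 14 windows given above for all lower genes, so they add no separate count. Promoters of the members not called were not counted apart. Iigp1 was measured at 18.1, 4.96 and 11.7 CPM in KO and 152, 169, 152 and 172 in WT (log2 fold change -3.84 ± 0.50, adjusted p = 1.45e-05). Gbp6 was at 7.0 to 21.7 CPM in KO and 74.6 to 121 in WT (-2.70 ± 0.46). Gbp2 was at 68.3, 19.4 and 68.8 CPM in KO and 157, 199.8, 126 and 238 in WT (-1.81 ± 0.30, adjusted p = 0.000322). KO library 2 was again the lowest for all 3 genes, and no KO library reached the WT range.

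Smaller differences were found in the rest of that family. Tgtp1 fell by 1.79 ± 0.32, Gbp4 by 1.71 ± 0.29, Irgm1 by 1.60 ± 0.29, Irgm2 by 1.16 ± 0.24 and Igtp by 1.14 ± 0.19 on the log2 scale. Gbp5 fell by 1.11 ± 0.25 (adjusted p = 0.00739), a call that was lost without KO library 2 (adjusted p = 0.106). Members of this family, Tgtp1 above all, have near-identical copies in the mouse genome, and how reads were divided among the copies is uncertain. Serpina3f and Serpina3g, serine protease inhibitors of a cluster with the same uncertainty, were also lower, by 3.67 ± 0.57 and 2.88 ± 0.48.

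In the list of interferon-stimulated genes in general, 16.7% of the tested members were called, beside 4.14% of all genes. Of 24 tested members, 4 were lower (Irf1, Gbp2 and Bst2 among them), 0 were higher and 20 were not called, and the median log2 fold change was 0.15. At an unadjusted p under 0.05 (edgeR) 4 were higher, where 7.9% of all genes were higher, and DESeq2 called 1 higher. Bst2 (tetherin), which holds budding virus at the membrane, was at 57.3 to 67.9 CPM in KO and 87.0 to 142 in WT (-0.89 ± 0.13, adjusted p = 9.69e-05). Isg15 and Ifit1, typical of the response to type I interferon, stood at 2.38 to 5.22 and 2.08 to 7.0 CPM in KO and at 0.767 to 4.52 and 0.767 to 3.86 CPM in WT, and neither was called. Ifngr1, which encodes the ligand-binding chain of the interferon-gamma receptor, was higher in KO, at 74.3, 75.2 and 58.1 CPM against 41.2, 43.9, 36.4 and 34.8 in WT (log2 fold change 0.82 ± 0.12, adjusted p = 5.05e-05).

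Genes of antigen presentation by MHC class I were among those lower in KO. Of 18 tested genes of the list, 9 were lower, 1 was higher and 8 were not called, with a median log2 fold change of -0.57. Called members made up 55.6%, beside 4.14% of all genes. Of the 8 promoter windows at hand for lower members, 2 held the ISRE letters and 0 the GAS letters. Tap1, which carries peptides into the endoplasmic reticulum, was measured at 405, 259 and 393 CPM in KO and 709.5, 591, 783.5 and 808.5 in WT (-1.04 ± 0.20, adjusted p = 0.00127). Tapbp, which links the peptide transporter to MHC class I, fell by 0.70 ± 0.12 and the class Ib molecule H2-T23 by 0.97 ± 0.18. Psmb9, an immunoproteasome subunit, fell by 1.04 ± 0.25 and Nlrc5, the class I transactivator, by 1.02 ± 0.26, but neither was called without KO library 2 (adjusted p = 0.107 and 0.167), nor was Nlrc5 without WT library 1 (adjusted p = 0.0663). Without KO library 2, 3 members of the list were lower in place of 9. Without WT library 3 the number was 5, without WT library 1 it was 6, and in the deposited TPM it was 5.

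H2-Ab1, which encodes a beta chain of MHC class II, was the member of that list that rose. Its level was 14.3, 16.0 and 15.7 CPM in KO and 6.39, 2.97, 2.41 and 5.21 in WT (log2 fold change 1.83 ± 0.25, adjusted p = 2.16e-05). Other class II genes had few counts. H2-Aa had 4 counts in KO and 0 in WT, and Ciita, the class II transactivator, had 3 and 7. As given above, the summed B cell markers were also higher in the KO libraries, with Cd79b at 12.2 to 20.2 CPM against 6.26 to 10.4 in WT. The part of other cells in the H2-Ab1 difference was not tested.

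**Figure D3:**
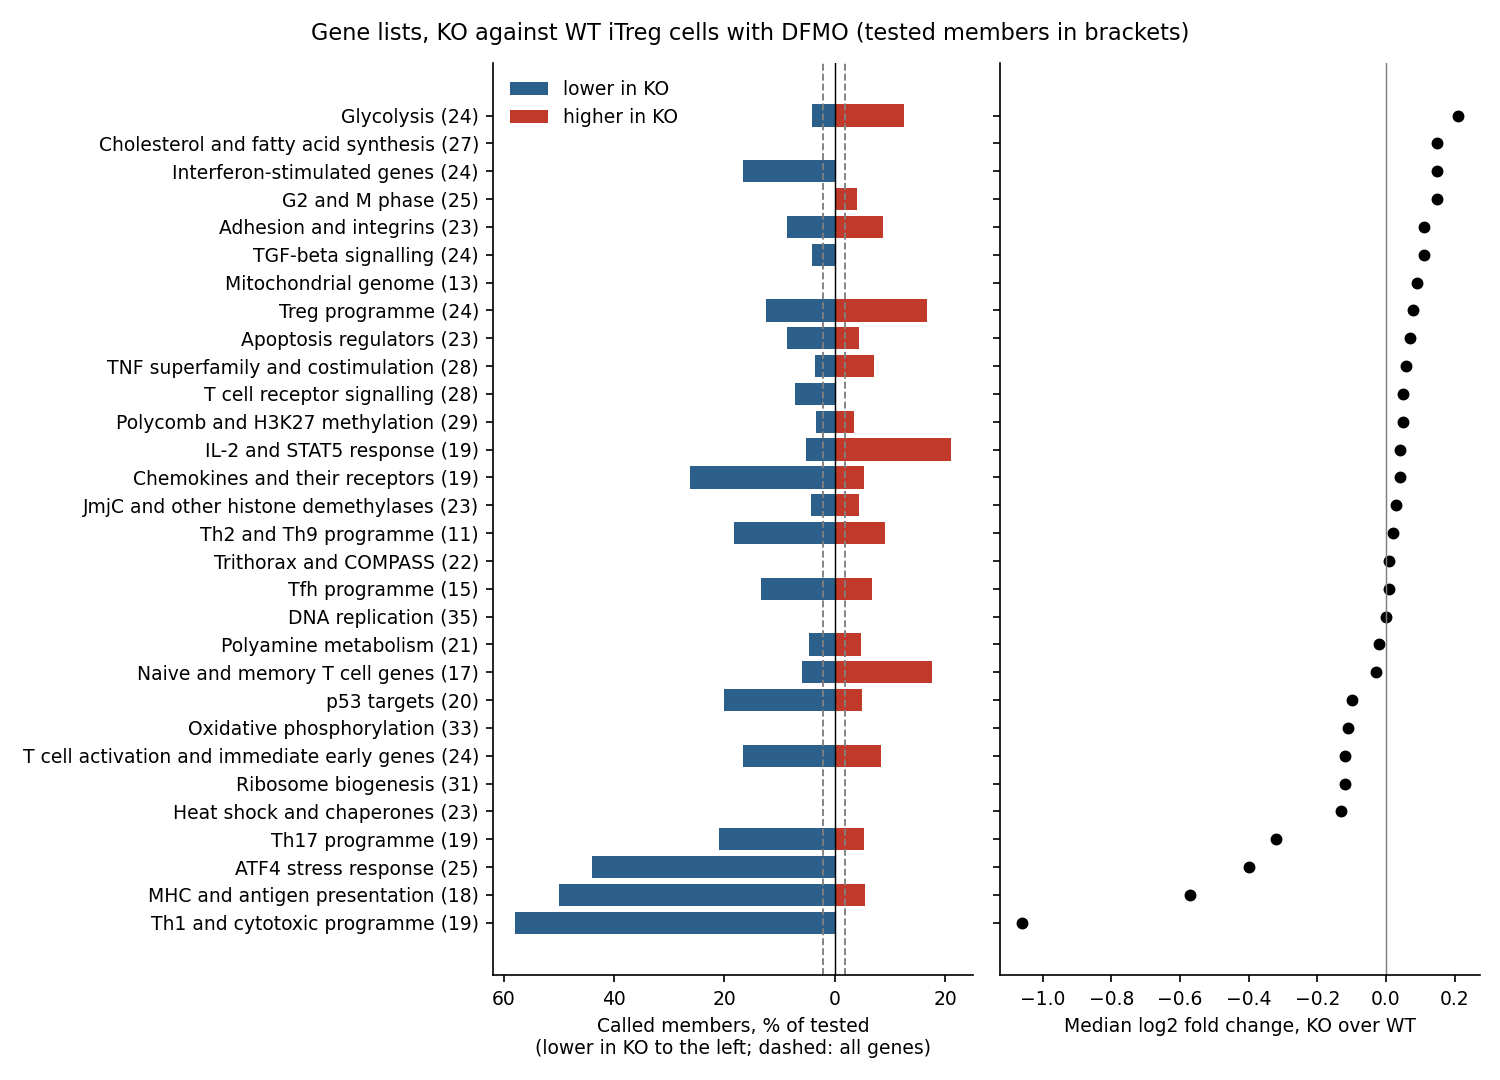
Left, the percentage of each list's tested members (number in brackets) called higher in KO (red, to the right) or lower in KO (blue, to the left), with dashed lines at the 1.91% and 2.23% of all genes. Right, each list's median log2 fold change; of the pathway lists drawn, the Th1, antigen presentation and ATF4 lists have the lowest medians (-1.06, -0.57 and -0.40).

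Further large decreases were found outside these lists. Ly6a, which encodes the surface antigen Sca-1, was measured at 1.78, 0.677 and 2.46 CPM in KO and at 191, 24.6, 229 and 31.3 in WT. WT libraries 2 and 4 were low among WT, as for Ifng and Gzmb, but stayed above every KO library. The log2 fold change was -6.24 ± 0.80 (adjusted p = 9.97e-06, or 0.0972 in the limma-voom fit). Car2 (carbonic anhydrase 2) had the same order of WT libraries, at 81.0, 12.2, 83.9 and 18.4 CPM against 1.19 to 4.06 in KO (-4.00 ± 0.63, adjusted p = 0.000153, or 0.0539 in the limma-voom fit). Ch25h, the enzyme that makes 25-hydroxycholesterol, was at 0 to 1.13 CPM in KO and 6.24 to 25.3 in WT (-4.71 ± 0.71).

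Mid1, a microtubule-associated ubiquitin ligase, showed another order, with WT libraries 2 and 4 the highest (31.8 and 36.8 CPM, against 9.97 and 16.5 in libraries 1 and 3). It fell by 2.91 ± 0.46 on the log2 scale in KO, where it was at 2.48 to 4.30 CPM. The protease inhibitor gene Serpine2 fell by 2.33 ± 0.44. Lcn10, a lipocalin, fell by 3.63 ± 0.84 (adjusted p = 0.0161), a call lost without WT library 3 (adjusted p = 0.0598), KO library 2 (0.0877) or KO library 3 (0.0698).

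Regulatory T cell genes moved in both directions. Of 24 tested members of the Treg list, 4 were higher in KO, 3 were lower and 17 were not called. The called share was 29.2%, beside 4.14% of all genes, and the median was 0.08. With WT library 1, WT library 3, KO library 1 or KO library 2 left out, 2 were higher and 1 lower, and with KO library 3 left out, 3 were higher and 1 lower. Foxp3 (GRCm38 chrX:7573644-7595245) was measured at 382, 355 and 318 CPM in KO and 189.7, 219, 213 and 309 in WT. The groups did not overlap, though WT library 4 came close to the lowest KO library. The log2 fold change was 0.60 ± 0.17, at an adjusted p of 0.041 just inside the threshold. The call was lost without WT library 1 (adjusted p = 0.131), WT library 2 (0.0604), WT library 3 (0.107), KO library 1 (0.176) or KO library 2 (0.122), and on the TPM (0.0853).

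Gpr83, a receptor found on regulatory T cells, was at 93.0, 86.0 and 96.5 CPM in KO and 49.9, 58.2, 58.6 and 69.9 in WT (0.64 ± 0.13, adjusted p = 0.00195). Nt5e (CD73), which makes adenosine from AMP at the cell surface, was at 54.4, 56.9 and 43.3 CPM in KO and 14.3, 31.2, 11.7 and 23.6 in WT (1.36 ± 0.23, adjusted p = 0.00042). In the opposite direction, Ikzf2 (Helios), a transcription factor of regulatory T cells, was at 13.7, 17.4 and 13.5 CPM in KO and 48.8, 43.9, 54.7 and 40.7 in WT. Its log2 fold change was -1.65 ± 0.25 (adjusted p = 7.8e-05, or 0.122 on the TPM). Entpd1 (CD39), which acts before CD73, was at 1.78 to 2.48 CPM in KO and 3.86 to 9.20 in WT (-1.52 ± 0.42, adjusted p = 0.0342), a call lost in each of 5 fits that left out 1 library (adjusted p of 0.144 without WT library 1, 0.0988 without WT library 3, and 0.141, 0.106 and 0.074 without KO libraries 1, 2 and 3).

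Genes of the TGF-beta pathway, which drives these cultures, gave 1 lower of 24 tested members (4.17%, beside 4.14% of all genes). The lower member was Pmepa1, and the list median was 0.11. Pmepa1, a feedback inhibitor of the pathway, was at -0.77 ± 0.22 (adjusted p = 0.0374), and its call was lost without WT libraries 1, 3 or 4 or KO libraries 2 or 3 (adjusted p of 0.0579, 0.103, 0.0845, 0.283 and 0.0767). The Th17 list gave 4 lower and 1 higher of 19 (26.3% called), with a median of -0.32. The higher one was Il6ra, the IL-6 receptor chain (0.99 ± 0.26, adjusted p = 0.0226), which was not called without WT libraries 1 or 3 (0.1 and 0.098) or KO libraries 1 or 3 (0.0577 and 0.115). Il17a and Il23r had 0 counts in all 7 libraries, and Il17f stood at 0 to 2.93 CPM in KO and 0 to 1.74 in WT. Il12rb1, the receptor chain shared by IL-12 and IL-23, was at 51.7, 44.7 and 51.0 CPM in KO and 97.4, 83.1, 99.6 and 102 in WT (-0.96 ± 0.11, adjusted p = 3.72e-06). Stat3, the transcription factor below IL-6 and IL-23, was at 240.1 to 269 CPM in KO and 354 to 386 in WT (-0.54 ± 0.09, adjusted p = 0.000236).

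Several surface molecules of T cells differed. Cd44, an adhesion receptor that rises on activation, was at 44.5, 64.3 and 71.0 CPM in KO and 175, 162, 216 and 215 in WT (-1.68 ± 0.17, adjusted p = 1.78e-07). Cd200, an inhibitory ligand, was at 71.3, 77.6 and 73.1 CPM in KO and 180.2, 178, 156 and 179 in WT. Its log2 fold change was -1.23 ± 0.09 (adjusted p = 8.27e-10). The inhibitory receptor Lag3 fell by 1.05 ± 0.20 and the adhesion ligand Icam1 by 0.87 ± 0.13.

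Bcl2, an inhibitor of apoptosis, was higher at 289, 267 and 236 CPM in KO against 188, 205, 180.2 and 166 in WT (0.51 ± 0.10, adjusted p = 0.00157). St6gal1, a sialyltransferase, was at 106, 100.4 and 81.4 CPM in KO and 27.9, 49.9, 13.5 and 35.4 in WT (1.60 ± 0.25). Eng (endoglin), a TGF-beta co-receptor, rose by 1.71 ± 0.24, and Ecm1, a secreted matrix protein, by 1.96 ± 0.41 (adjusted p = 0.00346, or 0.0807 in the limma-voom fit).

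**Figure D4:**
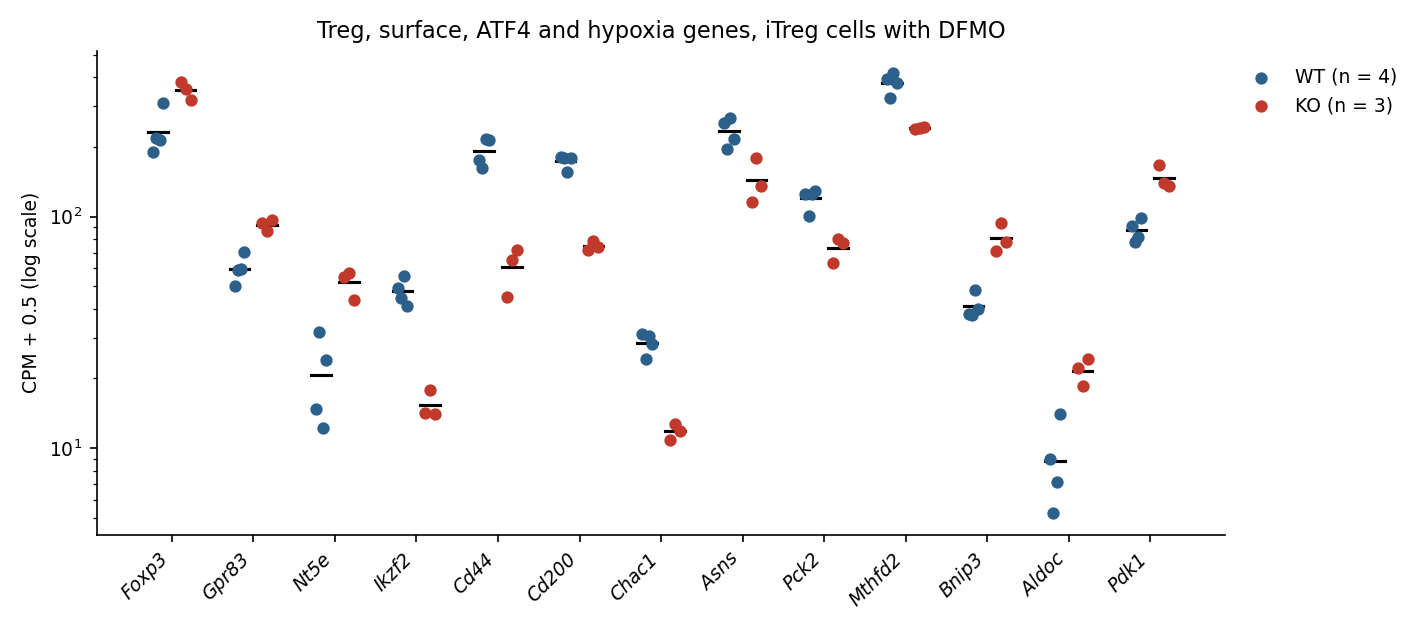
Level of 13 Treg, surface, amino acid stress and hypoxia-associated genes in each library (CPM plus 0.5, log axis), WT in blue (n = 4) and KO in red (n = 3), with a bar at each group's mean. Foxp3, Gpr83, Nt5e, Bnip3, Aldoc and Pdk1 are higher in KO and the other 7 lower.

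Targets of ATF4, the transcription factor that raises amino acid synthesis and import under stress, were among the lower genes. Of 25 tested members, 11 were lower, 0 higher (0 at an unadjusted p under 0.05 in edgeR, 0 by DESeq2) and 14 not called, with a median log2 fold change of -0.40. Called members made up 44.0%, beside 4.14% of all genes. Chac1, which degrades glutathione, was at 10.4, 12.2 and 11.4 CPM in KO and 30.7, 23.7, 30.1 and 27.8 in WT (-1.30 ± 0.17, adjusted p = 1.72e-05). Slc3a2, the heavy chain of amino acid transporters, was at 393 to 414 CPM in KO and 525 to 760.0 in WT (-0.76 ± 0.11, adjusted p = 5.33e-05). Mthfd2, of mitochondrial one-carbon metabolism, fell by 0.65 ± 0.11 and Pck2, the mitochondrial PEP carboxykinase, by 0.70 ± 0.12. The number of lower members was 4 without KO library 1, 6 without WT library 3, 7 without WT library 1, 6 in the TPM and 6 in the 7 libraries alone.

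Asns (asparagine synthetase) fell by 0.70 ± 0.15 (adjusted p = 0.00431), with KO library 2 at 179 CPM close to WT library 2 at 196, and was not called without KO library 1 (adjusted p = 0.0604). Atf4 itself was at 270.3, 331 and 346 CPM in KO and 445, 325, 488 and 464 in WT. WT library 2 lay within the KO range, and the call (-0.45 ± 0.11, adjusted p = 0.0119) was lost without KO library 1 (0.133) or WT library 3 (0.0643). Ddit3 (CHOP) and Trib3, also raised in this response, were not called, with log2 fold changes of -0.15 ± 0.16 and -0.13 ± 0.19. Atf3, a stress-induced factor counted here among the immediate early genes, was at 7.13, 12.2 and 11.7 CPM in KO and 36.8, 28.2, 38.2 and 44.8 in WT (-1.82 ± 0.18, adjusted p = 1.41e-07).

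The promoters of Chac1 and Atf3 are shown because each holds TTGCATCA, the letters of the C/EBP-ATF element that ATF4 is known to bind, here in capitals (RefSeq, GRCm38.p6, 250 bases before the start, both strands searched, chosen after the values were seen).
Chac1, chr2:119350992-119351241, plus strand: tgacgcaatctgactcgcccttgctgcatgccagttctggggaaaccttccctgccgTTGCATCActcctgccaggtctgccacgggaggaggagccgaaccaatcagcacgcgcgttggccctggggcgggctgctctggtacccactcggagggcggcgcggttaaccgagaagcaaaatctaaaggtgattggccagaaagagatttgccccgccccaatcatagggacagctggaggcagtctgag
Atf3, chr1:191183334-191183583, minus strand: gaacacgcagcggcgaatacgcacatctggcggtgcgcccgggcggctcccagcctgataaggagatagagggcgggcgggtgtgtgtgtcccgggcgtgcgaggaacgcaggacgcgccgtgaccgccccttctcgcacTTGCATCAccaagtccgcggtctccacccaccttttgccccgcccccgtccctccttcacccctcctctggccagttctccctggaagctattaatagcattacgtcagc
These letters were found in 60 of the 11052 windows of tested genes (0.543%), in 7 of 233 windows of genes lower in KO (3.0%) and in 2 of 230 windows of genes higher in KO (0.87%). Neither promoter shown holds the GAS or ISRE letters. Among the lower members of the ATF4 list, 2 of 10 windows held TTGCATCA, those of Chac1 and Nupr1.

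Genes of the hypoxia response, listed after their values were seen, were among the higher genes. Of 21 tested, 8 were higher, 0 were lower (0 at an unadjusted p under 0.05 in edgeR, 0 by DESeq2) and 13 were not called, with a median log2 fold change of 0.32. Called members made up 38.1%, beside 4.14% of all genes. When any 1 library was left out 6 or 7 were higher, and in the 7 libraries alone 4 were. Bnip3, a mitophagy receptor, was at 70.7, 93.0 and 77.4 CPM in KO and 37.6, 37.1, 47.8 and 39.3 in WT (1.00 ± 0.13, adjusted p = 9.78e-06). Pdk1, which holds pyruvate out of the mitochondrion, was at 167, 139.5 and 135 CPM in KO and 90.5, 77.2, 81.5 and 98.4 in WT (0.76 ± 0.11, adjusted p = 5.33e-05, or 0.47 with an adjusted p of 0.0534 on the TPM). Aldoc, an aldolase, rose by 1.35 ± 0.22, Mgarp, a mitochondrial protein, by 1.14 ± 0.18, the lactate exporter Slc16a3 by 0.55 ± 0.10 and Bnip3l by 0.53 ± 0.10. Hif1a (-0.08 ± 0.17), the glucose transporter Slc2a1 (0.14 ± 0.12) and Ldha (0.11 ± 0.09) were not called.

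Glycolysis genes, a list that shares Aldoc, Pdk1 and Slc16a3 with the hypoxia genes, gave these 3 higher and Hk2, a hexokinase, lower among 24 tested. The called share was 16.7%, beside 4.14% of all genes, and the median was 0.21. Hk2 (-0.43 ± 0.11, adjusted p = 0.0229) was not called without WT libraries 1 or 3 (0.0901 and 0.0817) or KO libraries 1 or 2 (0.102 and 0.0886), and on the deposited TPM its difference was -0.08 (adjusted p = 0.89, limma). Without WT library 4, 8 glycolysis genes were higher. Polyamine genes gave 1 higher and 1 lower of 21 (9.52% called). Smox, spermine oxidase, was at 22.6, 24.8 and 22.1 CPM in KO and 9.46, 11.3, 6.62 and 11.8 in WT (1.25 ± 0.25, adjusted p = 0.00206, or 0.0718 on the TPM), and the lower one was Slc3a2, described above.

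Histone demethylases gave 1 lower and 1 higher of 23 (8.7% called, beside 4.14% of all genes). The lower one was Kdm6b itself. The higher one was Kdm5b (0.40 ± 0.12, adjusted p = 0.0483). That call was lost in 5 of the 7 fits that left out 1 library (WT libraries 3 and 4, KO libraries 1, 2 and 3, adjusted p of 0.0721 to 0.268). Polycomb genes gave 1 lower and 1 higher of 29 (6.9% called). Pcgf5, a subunit of PRC1, was lower (-0.76 ± 0.15, adjusted p = 0.00198). Phc1, another PRC1 subunit, was higher (0.81 ± 0.23, adjusted p = 0.0388). Phc1 was not called without WT libraries 1, 3 or 4 (0.0963, 0.107 and 0.0799) or KO libraries 2 or 3 (0.0874 and 0.201). No member was called by edgeR of 22 Trithorax genes (median 0.01), 35 DNA replication genes (0.00), 31 ribosome biogenesis genes (-0.12), 33 oxidative phosphorylation genes (-0.11), 23 heat shock genes (-0.13) or 27 cholesterol and fatty acid synthesis genes (0.15). Without WT library 2, 4 ribosome biogenesis, 4 oxidative phosphorylation and 3 heat shock genes were lower and 1 DNA replication gene was higher. At an unadjusted p under 0.05 (edgeR), 2 Trithorax, 2 DNA replication and 6 cholesterol and fatty acid synthesis genes were higher. At that threshold 1 Trithorax, 6 ribosome biogenesis, 5 oxidative phosphorylation and 8 heat shock genes were lower. Over all genes tested, 7.9% were higher and 8.38% lower in this way. DESeq2 called 1 DNA replication gene higher and 1 gene each of ribosome biogenesis and oxidative phosphorylation lower. Within 5 Mb of Kdm6b, 4 of 101 tested genes were called (3.96%), beside 4.14% of all genes. They were Alox15, Atp2a3, Camkk1 and Txndc17, looked up after their values were seen.

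The same KO against WT contrast was set beside that in the other cultures of these animals, where 582 genes were called in iTreg ctrl (5.3%, with 3.17% higher and 2.13% lower in KO) and 112 in Th17n with DFMO (1.02%, with 0.646% higher and 0.373% lower). The libraries come from the same 7 animals, so the comparisons are not independent. Without DFMO, 8 of the 19 Th1 genes were lower and 1 higher (median -0.98), and 10 of the 15 interferon-inducible GTPases were lower (median -1.01). In Th17n with DFMO, 1 of the 19 Th1 genes was called, higher in KO, while 5 were lower at an unadjusted p under 0.05 in edgeR (4.49% of all genes), with a median of -0.41. The GTPases had a median of 0.01 there. Of the ATF4 list, 3 of 25 were lower without DFMO (median -0.28) and 1 in Th17n (median -0.26), where 13 were lower at an unadjusted p under 0.05. Of the 18 antigen presentation genes, 0 were called lower and 1 higher without DFMO (median -0.27). In Th17n 0 were called (median -0.22), while 4 were lower at an unadjusted p under 0.05 in edgeR.

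Tbx21 stood at 5.87 ± 1.89 CPM in KO (SD, n = 3) and 31.4 ± 15.7 in WT (n = 4) without DFMO, and at 8.75 ± 3.14 and 33.9 ± 28.5 in Th17n with DFMO. Its log2 fold change was -2.42 ± 0.64 without DFMO (adjusted p = 0.0229) and -1.94 ± 0.55 in Th17n (0.0972). The KO effect with DFMO in iTreg did not differ from either at the threshold (difference -2.29 ± 0.98, adjusted p = 0.417, against iTreg ctrl, and -2.77 ± 0.85, adjusted p = 0.258, against Th17n). Foxp3 was at 305.5 ± 42.6 CPM in KO and 281.5 ± 64.8 in WT without DFMO, and the difference of the KO effects was 0.48 ± 0.24 (adjusted p = 0.53).

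**Figure D5:**
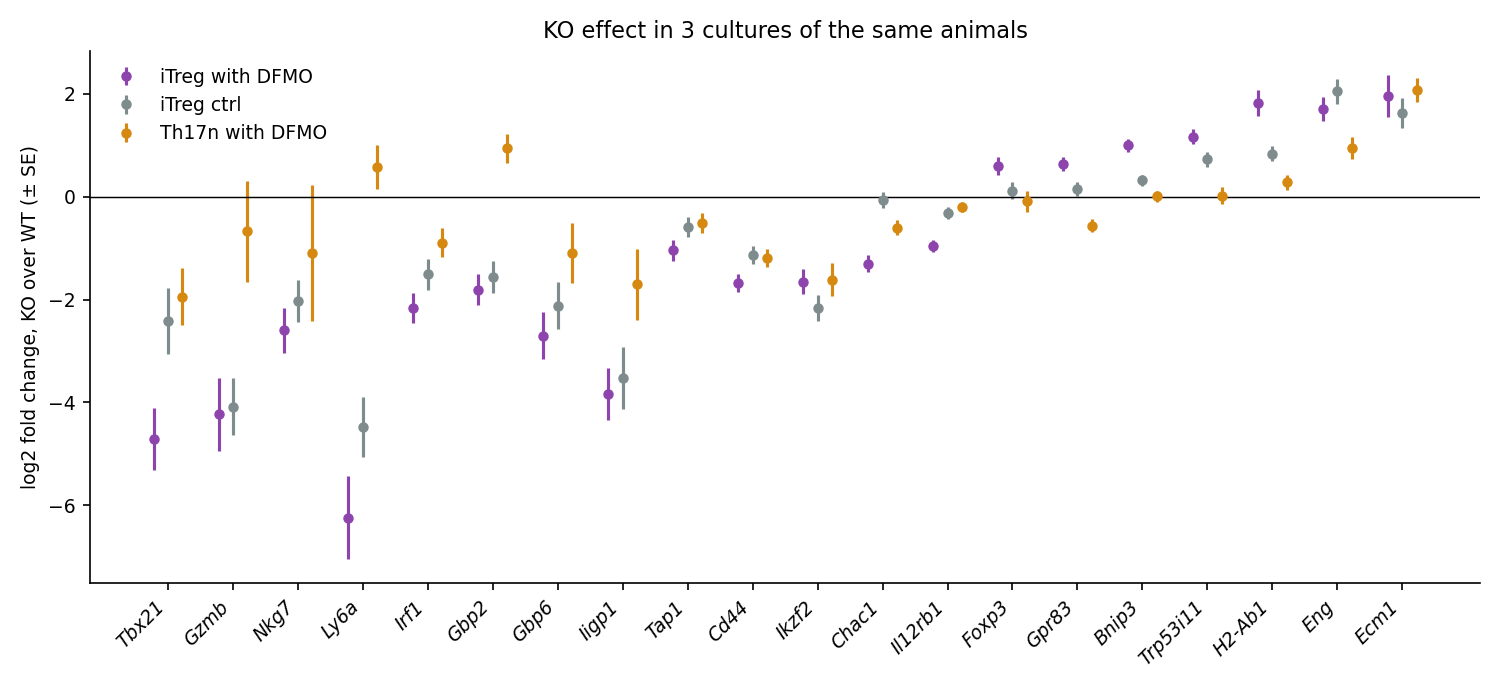
Log2 fold change of KO over WT (± SE) for 20 genes in iTreg with DFMO (purple), iTreg ctrl (grey) and Th17n with DFMO (orange), each from 3 KO and 4 WT libraries of the same animals. Ly6a and Gbp2 lie below 0 in both iTreg cultures and above 0 in Th17n.

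The KO effect differed between iTreg with and without DFMO for 27 genes (0.246%), 24 with a negative (0.218%) and 3 with a positive difference (0.0273%). Chac1 was not called without DFMO (-0.06, adjusted p = 0.886) and was lower in KO with it, a difference of -1.24 ± 0.23. Ifngr1, higher in KO with DFMO, was at -0.27 without (adjusted p = 0.16), a difference of 1.09 ± 0.16. A further 6 genes were called in the ctrl cultures and not with DFMO. Sgk1, a serum-induced kinase, was at -1.50 without DFMO and 0.07 with it, and Rnf187, Kctd13, Rps2, Plbd2 and B3gnt2 were at 1.39 to 2.75 without DFMO and -0.21 to 0.45 with it. Among WT libraries with DFMO, library 4 was the lowest for each of these 5 genes (Rnf187 at 91.8 CPM, the other 3 at 408 to 483). The count of 27 became 99 without WT library 4, 46 without WT library 2 and 16 without WT library 3. It was 4 in a fit of the 14 iTreg libraries alone. That edgeR fit called neither Sgk1 nor any of these 5 genes (adjusted p of 0.0541 to 0.147). None of these fits pairs the cultures of an animal. With the animal as a block in the 14 iTreg libraries the count was far larger than 27, as given in the last section.

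Between iTreg and Th17n, both with DFMO, the KO effect differed for 21 genes (0.191%), 11 with a positive (0.1%) and 10 with a negative difference (0.091%). Ly6a had the largest negative difference, -6.83 ± 0.93. In Th17n its level was 525 ± 86.6 CPM in KO and 350.3 ± 78.2 in WT, and it was not called (adjusted p = 0.783). Gbp2 (-2.75) and Ube2l6 (-1.82), a conjugating enzyme for ISG15, also had negative differences, while H2-Ab1 (1.55), Gpr83 (1.20) and Trp53i11 (1.15) had positive ones. Gpr83 was lower in KO in Th17n (-0.56, adjusted p = 0.0141) and higher in KO in iTreg. The difference for Ly6a had an adjusted p of 0.223 in the limma-voom fit. Those for H2-Ab1, Trp53i11 and Ube2l6 were not called without KO library 2 (adjusted p = 0.0529, 0.0882 and 0.0529), and the total was then 10. With the animal as a block in the 14 DFMO libraries, the same 3 differences were not called (adjusted p = 0.0577, 0.0511 and 0.0577).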

How the data were processed

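RNA was sequenced as full-length libraries with paired reads of 75 bp, per the labels' protocols. The authors deposited an estimated count and a TPM for each of 20891 genes, made with kallisto and the GRCm38 build according to the submitters' processing notes. Its version and the use of strand are not given in the sources used here, so reads of genes that overlap on opposite strands may be mixed. Of the gene names, 20837 matched GENCODE M21.

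The deposited estimated counts were rounded and fitted in edgeR 4.0.16 (R 4.3.3): TMM scaling, edgeR's filter on low counts (10985 genes kept), 1 quasi-likelihood model of 8 group means over all 28 libraries (20 residual degrees of freedom), and Benjamini-Hochberg adjustment over all tested genes. Standard errors were derived from the quasi-likelihood F. CPM uses TMM-scaled library sizes. The method was also run on counts simulated from its own group means and spread, with independent libraries. Such a run cannot show how shared animals or single deviating libraries affect the calls. Alternatives used DESeq2 1.42.0, limma 3.58.1 on log2(TPM + 1) or log2(TPM + 0.1), limma-voom, other sample sets and left-out libraries.

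The members and gene lists were chosen with earlier results of these data known. Genes named were Kdm6b, Odc1, Foxp3, Il17a, Il17f and Il23r, the 15 largest called changes each way with at least 10 CPM in 1 group and no overlap, up to 4 called members per list by adjusted p, and up to 5 genes each way for the 2 differences of KO effects. A further 22 were named after their values were seen, as were the 2 added lists. Some genes under the rule are given only in counts, and some are not reported here.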

Additional observations from a re-analysis of the deposited data

Results flagged for a closer look

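In 2 genes, 1 WT library lay far from the other 3 for its group's range: Cd200 at 155.8 CPM in WT library 3 and Pck2 at 100.4 CPM in WT library 2. Both remained above every KO library. Chance flags about 1 in 20 groups in this way.

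The KO effect differed by a test of the difference itself between iTreg with and without DFMO for Sgk1 (log2 difference 1.57), Ifngr1 (1.09), Rnf187 (-2.30), Kctd13 (-1.69), Rps2 (-1.63), Plbd2 (-1.54) and B3gnt2 (-1.51), from edgeR with adjustment over all genes. For Rps2, a ribosomal protein gene with many processed copies in the genome, the division of reads is uncertain. In a fit of the 14 iTreg libraries alone, the differences for Sgk1 (adjusted p = 0.0686), Rnf187 (0.147), Kctd13 (0.14), Rps2 (0.0541), Plbd2 (0.0731) and B3gnt2 (0.0749) were not called. On the TPM, those for Sgk1 (0.078), Rnf187 (0.112) and Kctd13 (0.115) were not called. Between iTreg and Th17n, both with DFMO, it differed for H2-Ab1 (1.55), Smox (1.44), Sytl1 (1.35), Gpr83 (1.20), Trp53i11 (1.15), Ly6a (-6.83), Gbp2 (-2.75), Ube2l6 (-1.82), Armcx6 (-1.61) and Gpr18 (-1.33). The Smox difference was not called without WT library 1 (adjusted p = 0.0744), WT library 3 (0.0869), KO library 1 (0.051) or KO library 2 (0.124), nor on the TPM (0.496). With the animal as a block in the 14 DFMO libraries, H2-Ab1 (0.0577), Trp53i11 (0.0511), Ube2l6 (0.0577) and Gpr18 (0.0577) were not called. In the limma-voom fit, H2-Ab1 (0.077) and Ly6a (0.223) were not called.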

How the results depend on the processing

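Of 118 named genes called for KO against WT, 77 were called in every fit that left out 1 library and 60 in every alternative, and 0 changed sign. Most calls were lost in the 7 libraries alone (38) and on the TPM (30 with either pseudocount). The count of 455 genes became 186 in the 7 libraries alone, 291 in the 14 iTreg libraries and 263 to 727 with 1 library left out. The difference between iTreg with and without DFMO (27 genes) gave 95 by DESeq2, 146 without the filter, 52 with limma-voom and the animal as a random effect, 4 in the 14 iTreg libraries, 277 with an animal block in those 14, and 16 to 99 with 1 library left out. On TPM the median of all genes for this difference was 0.13 with a pseudocount of 0.1. The difference between iTreg and Th17n (21 genes) gave 48 by DESeq2, 99 without the filter, 32 on TPM with a pseudocount of 0.1, 12 with an animal block in the 14 DFMO libraries, and 10 to 30 with 1 library left out. The causes were not tested.

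The labels give KO and WT animals the same replicate numbers and do not say whether these pair them. With a replicate block the counts were 624, 72 and 51. Deviations of same-numbered libraries correlated at 0.098, 0.172 and 0.166. KO libraries 1 and 2 correlated best with their own number, and KO library 3 with WT library 4 (0.179).

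Sign changes occurred in uncalled genes. Odc1 (-0.02) was 0.07 on the TPM with either pseudocount, 0.01 with the replicate block, and 0.00 to 0.02 without WT library 2, WT library 3 or KO library 3, and its lowest value with 1 library left out was -0.09. Il17f (0.83) was -0.03 on TPM with a pseudocount of 0.1 and -1.21 without KO library 2, up to 1.44 without WT library 4. Kctd13 (-0.21) was 0.02 and Rps2 (-0.02) 0.10 on the TPM with either pseudocount. Rps2 was also 0.00 with limma-voom, and 0.02 to 0.12 without WT library 1, WT library 3 or KO library 1, and at lowest -0.14. Plbd2 (0.04) was -0.03 with the replicate block and -0.08 without WT library 4. The depth limits what can be seen for genes of a few CPM.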
